A study of Mus musculus with 12 samples.

Results

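The genes described here are 37 genes of protein folding in the endoplasmic reticulum (ER) and of the unfolded protein response, measured by RNA sequencing in mouse hearts. They form a list of symbols drawn up with earlier results of these data known, with no threshold on their values, and were looked up among the 46983 symbols of each deposited table, where all 37 were found. A mean value of at least 10 normalized reads was asked for before testing. It was met by 34 genes in the cardiomyocyte fraction (CM), all but Sdf2l1, Derl3 and Trib3, and by 36 in the non-cardiomyocyte fraction (NonCM), all but Derl3.

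Hearts of 2 genotypes were each divided into a CM and a NonCM fraction, with 3 libraries in each of the 4 groups. Control mice had the genotype MCM/+. The other mice were MCM/+ Wls fl/fl, and all had the strain label BL6/C57. MCM usually stands for MerCreMer, a Cre recombinase that acts after tamoxifen, and the label does not name the promoter that drives it. Both genotypes carried MCM and received 3 doses of tamoxifen, from postnatal day 1 to day 3. Infarction was induced in both at postnatal day 2. Tissue was taken 2 weeks after this surgery, although the labels call the cells adult. No group here carried floxed Wls without MCM, none was uninjured, and none went without tamoxifen. The series states 3 hearts per condition, while the labels do not tie a CM library to the NonCM library of the same heart. The study asks what follows in both kinds of cell when cardiomyocytes lose Wls (Wntless), the protein that escorts Wnt ligands through the ER and Golgi to the cell surface.

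Secreted and membrane proteins enter the ER through the Sec61 channel and fold there with the help of chaperones of the Hsp70 and Hsp90 families, of the lectins calnexin and calreticulin, which hold glycoproteins, and of enzymes that form disulfide bonds or turn proline bonds. Proteins that fail to fold are drawn back to the cytosol and degraded (ER-associated degradation). When unfolded proteins collect, the sensors Ire1 (Ern1), Perk (Eif2ak3) and Atf6 signal through the transcription factors Xbp1, Atf4 and cleaved Atf6, which raise chaperone and degradation genes or, for Atf4 and Chop (Ddit3), genes of amino acid supply and cell death. Cells that secrete much matrix, such as fibroblasts, use the same folding enzymes for collagen, and cardiomyocytes use a related membrane store for calcium, which calreticulin also binds.

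Many of these genes share short promoter elements, shown here because the genes are often described as a set with common control sequences. In RefSeq promoters of build GRCm38.p6, from 250 bases before to 50 bases after the start site, 32 of the 37 genes had an entry (Ero1l under its synonym Ero1a). Hyou1, Manf, Fkbp10, Derl1 and Atf6 did not. The ER stress response element (ERSE), searched as CCAAT and CCACG with 9 bases between them on either strand, was found in 9 of 32 genes (28.1%), against 0.137% of 27025 genes with a promoter. Its 8 copies that follow belong to tested genes, with 10 bases on each side and the 2 half-sites in capitals, 5′ to 3′ along the gene's strand:
Hspa5: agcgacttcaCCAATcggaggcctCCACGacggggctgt
Hsp90b1: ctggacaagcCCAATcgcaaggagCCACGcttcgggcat
Calr: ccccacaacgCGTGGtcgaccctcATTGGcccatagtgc
Canx: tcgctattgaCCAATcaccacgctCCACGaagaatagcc
Dnajc3: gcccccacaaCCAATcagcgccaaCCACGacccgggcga
Pdia6: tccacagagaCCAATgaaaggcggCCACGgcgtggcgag
Creld2: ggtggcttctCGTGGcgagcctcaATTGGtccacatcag
Syvn1: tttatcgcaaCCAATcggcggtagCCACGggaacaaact

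The element lay at chr2:34772025-34772043 in Hspa5, on the plus strand, and at chr8:84847075-84847093 in Calr, a gene of the minus strand, where the half-sites read in the opposite orientation. Hsp90b1 held a second copy, and Derl3 was the other gene with one. ERSE-II, searched as ATTGG and CCACG with 1 base between them, has the same half-sites as ERSE, with CCAAT as its reverse complement and another spacing. ERSE-II was present in Herpud1 and Dnajb11 (6.25% of 32 genes, against 0.0444% of all genes). The C/EBP-ATF response element, searched as TGATG and AA with 1 base between them, was present in Herpud1, Trib3, Asns and Chac1 (12.5%, against 4.51% of all genes). These 4 genes are known as targets of Atf4, and the copies of Asns, chr6:7693225-7693232 on the minus strand, and Chac1, chr2:119351049-119351056 on the plus strand, are printed with the element in capitals:
Asns: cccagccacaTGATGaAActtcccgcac
Chac1: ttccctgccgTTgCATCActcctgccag

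The unfolded protein response element, TGACG followed at once by TGG, which contains the reverse complement of CCACG, was found in 0 of 32 genes, against 0.714% of all genes. A match to these letters is a description of the window. The results below turn on Pdia4 and Calr, and the 250 bases before their start sites are given for that reason. They lie at chr6:47813513-47813762 for Pdia4 and chr8:84846932-84847181 for Calr, both on the minus strand, with ERSE half-sites in capitals where the exact element is present:
Pdia4: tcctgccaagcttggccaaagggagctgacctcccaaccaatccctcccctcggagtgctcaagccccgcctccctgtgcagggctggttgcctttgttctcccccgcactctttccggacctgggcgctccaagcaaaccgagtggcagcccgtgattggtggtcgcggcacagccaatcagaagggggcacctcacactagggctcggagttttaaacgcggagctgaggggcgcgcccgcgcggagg
Calr: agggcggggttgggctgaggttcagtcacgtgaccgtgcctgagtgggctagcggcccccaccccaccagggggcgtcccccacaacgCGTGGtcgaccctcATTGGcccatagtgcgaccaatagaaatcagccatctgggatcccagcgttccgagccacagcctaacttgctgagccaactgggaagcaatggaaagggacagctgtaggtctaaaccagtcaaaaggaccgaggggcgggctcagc

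Several properties of the libraries bear on every result. Whole reads could be recovered from the deposited values and numbered 1160146 in NonCM control replicate 1, where 1 read equals a normalized value of 5.54, and between 5171769 and 10281214 in the other 11 libraries. Replicates are numbered 1 to 3 within a group as names only. In each group, replicate 3 fell between the other 2 more often than either of them did, as a mixture would. It did so for 39.4% to 48.9% of all tested genes, and each of the others for 15.6% to 35.5%. Replicate 3 was also the deepest library of its group in CM control, CM Wls fl/fl and NonCM control. The part of depth in these shares was not tested. After the best weighting, replicate 3 deviated from such a mean by 0.999 to 1.14 times the counting variance, and the other replicates by 1.11 to 2.06 times. In CM Wls fl/fl, replicate 1 (1.11) deviated slightly less than replicate 3 (1.14). Because replicate 3 may be such a mixture, results are given with and without it, and p-values measure the spread between libraries that may not all be separate hearts. Wls itself, the targeted gene, had normalized read counts of 243, 201 and 210 in CM control, against 91.6, 57.3 and 93.9 in CM Wls fl/fl libraries (log2 change -1.45, SE 0.17, adjusted p = 0.0039 by limma). Without replicate 3 the log2 change was -1.60 with an adjusted p of 0.0898, and without CM control replicate 3 the adjusted p was 0.0521. In NonCM the change of Wls was -0.28 (adjusted p = 0.0831).

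In the NonCM fraction, folding genes were mostly higher in Wls fl/fl hearts, by small amounts. Of the 36 genes tested, 32 (88.9%) had a higher mean log2 value than controls, against 53.2% of all 13271 genes tested, and the median log2 change was 0.16, against 0.02. By limma with Benjamini-Hochberg adjustment over all genes, 2 of 36 (5.56%) rose, Pdia4 and Calr, and 0 fell, beside 4.51% of all genes called in either direction and 2.47% called up. That share is near the background. At an unadjusted p under 0.05 stood 18 genes (50%), against 19.3% of all genes, of which 17 were higher, against 10.5% of all genes. With edgeR's quasi-likelihood test on the recovered reads 10 genes rose (27.8%, against 5.73% of all genes) and 1 fell (against 5.16%). Those that rose by edgeR were Hyou1, Dnajc3, Manf, Calr, Pdia3, Pdia4, Pdia6, Fkbp10, Edem1 and Eif2ak3, and the 1 that fell was Trib3. The authors' deposited table gave an adjusted p to 34 of the genes and had 3 under 0.05, Pdia4, Pdia3 and Calr, all higher.

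Which genes passed depended on single libraries, whereas the direction of most did not. Without replicate 3 of both genotypes 0 of 36 genes were called by limma or edgeR, as against 0 and 33 of all genes. At an unadjusted p under 0.05 by limma stood 8 (22.2%), against 9.35% of all genes in that fit. Means were higher for 30 (83.3%, against 53.4% of all genes), and the median log2 change was again 0.16. Leaving out the shallow NonCM control replicate 1 gave 15 calls of 36, in a fit where 6.63% of all genes rose and 5.67% fell. The 13 that then rose were Hspa5, Hsp90b1, Hyou1, Dnajc3, Manf, Calr, P4hb, Pdia3, Pdia4, Pdia6, Fkbp10, Edem1 and Eif2ak3, and Herpud1 and Trib3 fell. A single call was left, 1 of 36, when control replicate 2 was left out and likewise for Wls fl/fl replicate 1. With control replicate 3 removed the count was 0, and also when either the second or the third Wls fl/fl replicate was removed. Between 30 and 32 of 36 genes were higher in each of these fits.

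**Figure D1:**
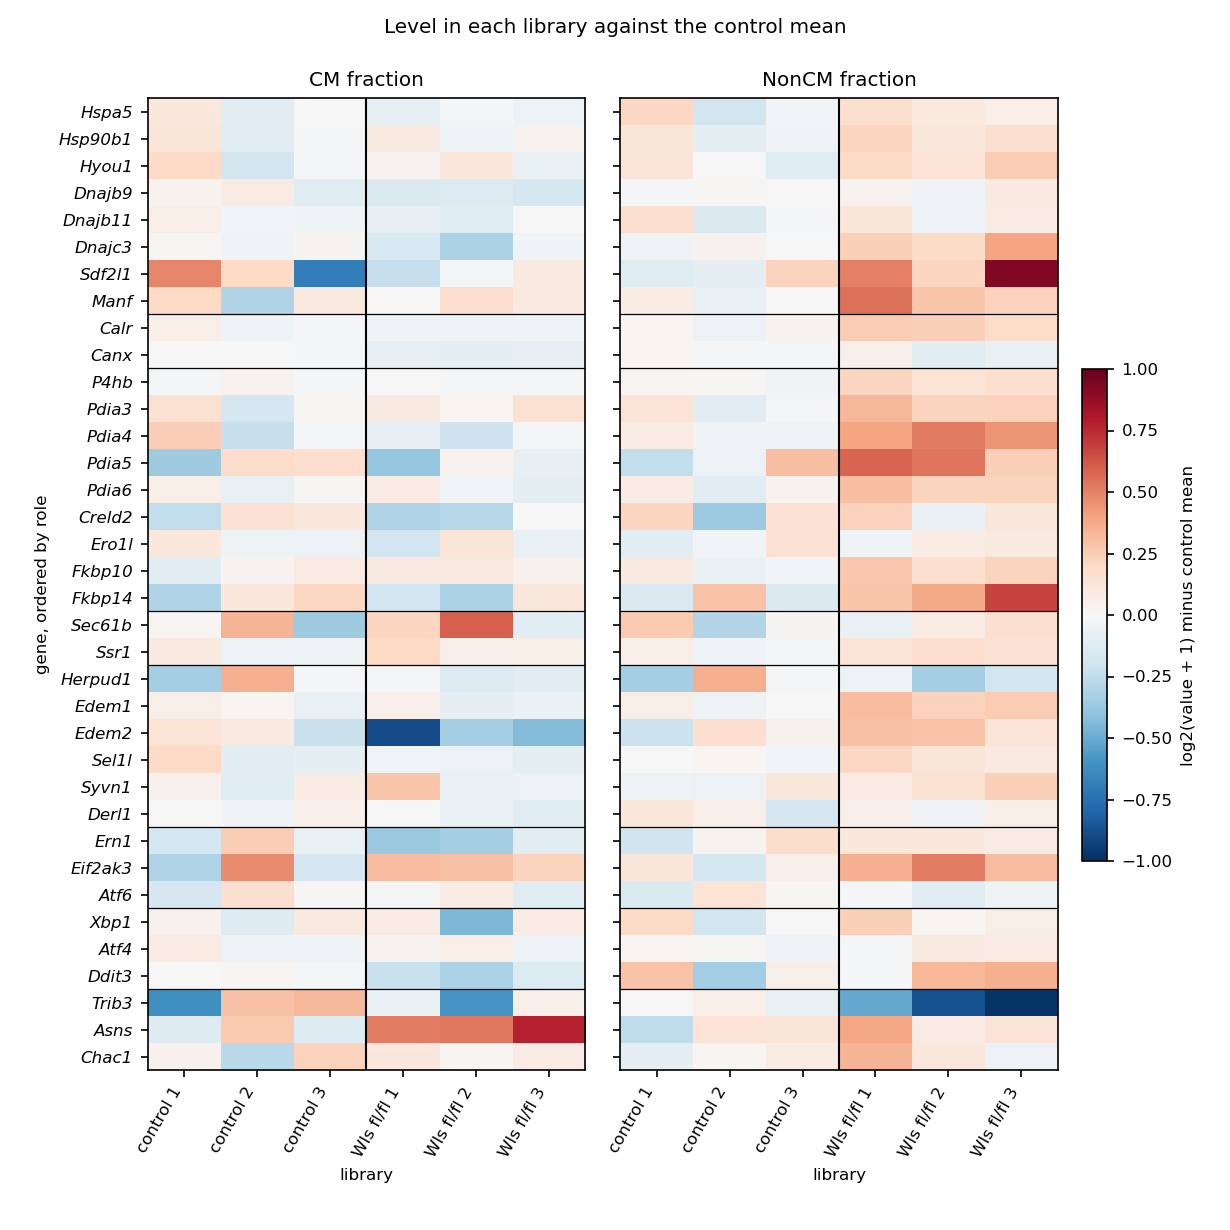
Level of 36 genes (rows, ordered by role; Derl3 is not shown) in each of the 6 libraries of each fraction (columns), as log2(value + 1) minus the mean of the 3 control libraries of that fraction, in log2 units. In NonCM the Wls fl/fl columns are mostly red for chaperones and isomerases, with Trib3 blue, while CM shows no such block; Sdf2l1 and Trib3 in CM rest on at most 16 reads a library.

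Composition of the NonCM fraction moved with genotype as well. Summed over 12 fibroblast markers, the share of normalized reads was 1.26% to 1.32% in control and 1.76% to 1.86% in Wls fl/fl libraries, with 12 of 12 markers higher and 8 called. The 15 cardiomyocyte markers took 7.53% to 8.23% in control and 6.50% to 6.74% in Wls fl/fl libraries, with 0 of 15 higher and 11 called lower. Macrophage markers took 0.139% to 0.173% and 0.195% to 0.211% (11 of 12 higher, 3 called), and endothelial markers 0.205% to 0.210% and 0.189% to 0.199% (1 of 12 higher, 1 called lower). For 8 genes listed as mural markers the shares were 0.285% to 0.293% and 0.259% to 0.265% (4 of 8 higher, 2 called lower). These genes, which include Des, took more in CM control libraries, 0.375% to 0.380%, so their share does not stand for mural cells alone. For B and plasma cells, which are rich in ER, they were 0.00274% to 0.00431% and 0.00272% to 0.00974% (4 of 4 tested genes higher, 0 called). No marker was without reads. In these bulk libraries fewer cells of a type and less RNA per cell cannot be told apart, and the part of these shifts in the values of the folding genes was not tested. By these markers the NonCM libraries held cardiomyocyte RNA: 7.53% to 8.23% in control, beside 11.4% to 11.5% in CM control libraries. Levels and changes in NonCM are therefore those of a mixed fraction and not of non-cardiomyocytes alone.

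Enzymes of disulfide bonds and proline isomerization were all on the higher side in NonCM, 9 of 9, with a median log2 change of 0.25. Of these 1 was called by limma (11.1%, against 4.51% of all genes) and 4 rose by edgeR (44.4%, against 5.73%). By limma 7 had an unadjusted p under 0.05 (77.8%, against 19.3% of all genes). Pdia4, a disulfide isomerase with several thioredoxin-like domains, had normalized read counts of 371, 345 and 345 in control, against 465, 508 and 479 in Wls fl/fl libraries. All Wls fl/fl values lay above all control values, and the means were 354 ± 15.4 and 484 ± 21.5 (SD, n = 3), or 1.37-fold. Its log2 change was 0.45 (SE 0.07, adjusted p = 0.0088 by limma and 0.00039 by edgeR). The adjusted p of Pdia4 without replicate 3 was 0.36 by limma and 0.103 by edgeR, with a log2 change of 0.44. It was also above the threshold when control replicate 3 was removed (0.0528), and with the second (0.0702) or the third (0.0755) Wls fl/fl replicate removed. The control libraries differed by less than counting error alone gives on average, with a coefficient of variation of 4.36% against 8.14%.

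Other members of the isomerase group showed smaller or less even differences. Pdia3 (ERp57), which works with calnexin and calreticulin on glycoproteins, had 1397, 1179 and 1267 normalized reads in control, against 1606, 1488 and 1501 in Wls fl/fl libraries, without overlap (log2 change 0.26, SE 0.07, adjusted p = 0.0652 by limma and 0.0111 by edgeR). Pdia6, which also acts on the sensor Ire1, differed by 0.25 (adjusted p = 0.0725). P4hb, the classical disulfide isomerase and a subunit of collagen prolyl hydroxylase, differed by 0.17 (adjusted p = 0.0730). Fkbp10 and Fkbp14, prolyl isomerases that act on procollagen, differed by 0.22 (adjusted p = 0.137) and 0.44 (SE 0.16, adjusted p = 0.155). Pdia5 had 33.3, 38.1 and 49.2 normalized reads in control, against 59.8, 57.9 and 47.1 in Wls fl/fl libraries, so that the groups overlapped, and its first value rests on 6 reads. Creld2 and Ero1l, the oxidase that recharges disulfide isomerases, differed by 0.09 (SE 0.17) and 0.04 (SE 0.11).

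Of the 2 lectin chaperones, Calr rose and Canx did not pass the test in NonCM. Calr, which encodes calreticulin, had normalized read counts of 2145, 2033 and 2163 in control, against 2514, 2497 and 2400 in Wls fl/fl libraries. The groups did not overlap, with means of 2114 ± 70.4 and 2470 ± 61.7 (SD, n = 3), or 1.17-fold. The log2 change was 0.22 (SE 0.05, adjusted p = 0.0322 by limma and 0.0172 by edgeR). Calr lost its call without control replicate 2 (adjusted p = 0.0556), without control replicate 3 (0.1) and without each Wls fl/fl replicate (0.095, 0.158 and 0.147), and without replicate 3 of both genotypes its adjusted p was 0.452. Canx, the membrane-bound relative of calreticulin, had 3093, 3032 and 3037 normalized reads in control, against 3158, 2828 and 2895 in Wls fl/fl libraries. Its groups overlapped, and the log2 change was -0.05 (SE 0.05, adjusted p = 0.675).

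All 8 chaperones and co-chaperones had higher means in NonCM Wls fl/fl libraries, with a median log2 change of 0.18. By limma 5 stood at an unadjusted p under 0.05 (62.5%, against 19.3% of all genes) and 0 were called. By edgeR 3 rose (37.5%, against 5.73% of all genes). Without replicate 3, 7 of 8 were higher. Hspa5 (BiP), the Hsp70 of the ER that holds the sensors inactive, had 4013, 3070 and 3424 normalized reads in control, against 3886, 3719 and 3641 in Wls fl/fl libraries. The first control value was above every Wls fl/fl value and the other 2 were below (log2 change 0.11, SE 0.09, adjusted p = 0.55). That high value belongs to the shallow library, where Hspa5 had 724 reads, and without it the log2 change of Hspa5 was 0.21 with an adjusted p of 0.0214. Hsp90b1 (Grp94), the Hsp90 of the ER, differed by 0.16 (SE 0.06, adjusted p = 0.182).

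Dnajc3 (p58IPK), a co-chaperone of BiP, had 543, 580 and 564 normalized reads in control, against 662, 643 and 740 in Wls fl/fl libraries, without overlap (log2 change 0.28, SE 0.07, adjusted p = 0.0551 by limma and 0.0186 by edgeR). Manf, a small ER-resident factor that can be secreted, had 200, 181 and 190 against 279, 230 and 223 normalized reads, again without overlap (log2 change 0.35, SE 0.10, adjusted p = 0.0865 by limma and 0.017 by edgeR). Hyou1 (Grp170), the nucleotide exchange factor of BiP, differed by 0.19 (adjusted p = 0.203), Sdf2l1 by 0.55 (SE 0.23, adjusted p = 0.226), and Dnajb9 and Dnajb11 by 0.03 and 0.05. Gene models on the same strand overlap Manf (Rbm15b), Pdia4 (the microRNA gene Mir704) and Hsp90b1 (Gm15344 and Gm25745), and how shared reads were counted is not given. Nor is the use of strand, which touches Hsp90b1, Dnajb9, Manf, Pdia3, Pdia6, Fkbp10, Fkbp14, Syvn1, Eif2ak3 and Ddit3, whose gene models overlap another gene on the opposite strand.

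**Figure D2:**
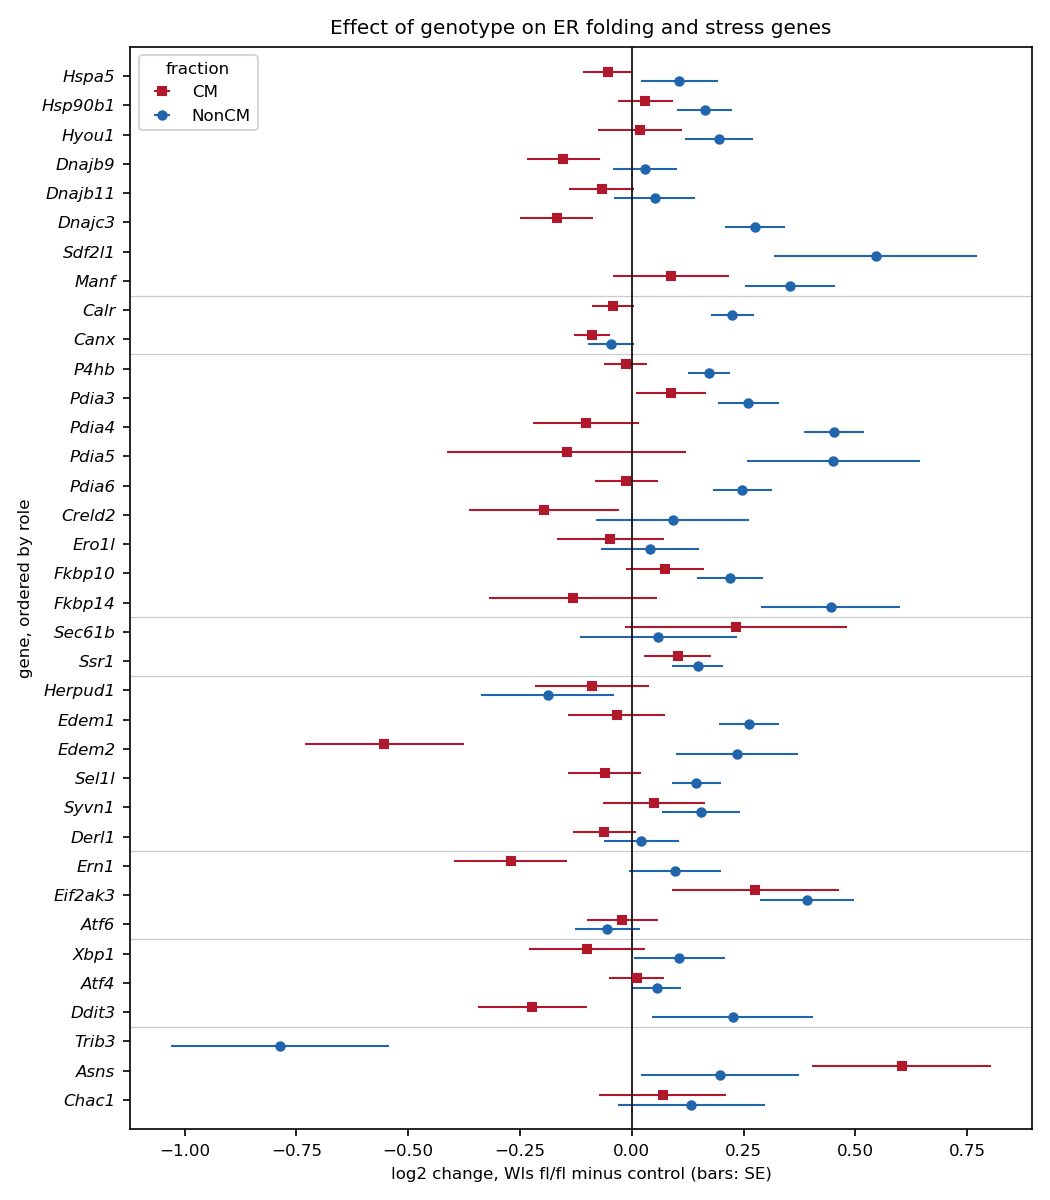
Log2 change of each gene (rows, ordered by role), Wls fl/fl minus control, in CM (red squares) and NonCM (blue circles), with bars of 1 standard error from limma; Derl3 is not shown, and Sdf2l1 and Trib3 have no CM point because they were below the minimum value. Most blue points lie right of 0, with Pdia4 at 0.45 and Trib3 at -0.79, while red points scatter on both sides of 0.

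Of the 3 sensors of unfolded proteins 0 were called in NonCM by limma and 1 by edgeR (against 5.73% of all genes called up). By limma 1 stood at an unadjusted p under 0.05 (against 19.3% of all genes). Eif2ak3, which encodes the kinase Perk, had normalized read counts of 172, 140 and 163 in NonCM control, against 202, 225 and 196 in Wls fl/fl libraries. All Wls fl/fl values were above all control values, and the log2 change was 0.39 (SE 0.10, adjusted p = 0.0711 by limma and 0.00938 by edgeR). Ern1, which encodes the Xbp1-splicing nuclease Ire1, had 177, 208 and 230 against 219, 220 and 216, within the control range (log2 change 0.10, SE 0.10, adjusted p = 0.656). Atf6 had 848, 1028 and 943 against 928, 868 and 911, also within the control range (log2 change -0.05, SE 0.07, adjusted p = 0.733). Gene-level counts measure neither the splicing of Xbp1 nor the cleavage of Atf6 nor the activity of Perk.

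None of the 3 transcription factors was called in NonCM by limma or edgeR, nor stood at an unadjusted p under 0.05 by limma. Xbp1 had normalized read counts of 510, 391 and 444 in control, against 526, 452 and 465 in Wls fl/fl libraries, which overlapped (log2 change 0.11, SE 0.10, adjusted p = 0.612). Atf4 had 748, 747 and 723 against 734, 788 and 785, with 1 Wls fl/fl value within the control range (log2 change 0.06, SE 0.05, adjusted p = 0.625). Ddit3 had 99.8, 64.1 and 84.7 against 80.8, 103 and 105, with the widest spread of the 3 (log2 change 0.23, SE 0.18, adjusted p = 0.541). The first Ddit3 value rests on 18 reads.

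Of the downstream genes Trib3, Asns and Chac1, 2 had higher means in NonCM and 1 a lower mean. Trib3, a pseudokinase induced by Atf4 and Ddit3, had 27.7, 29.0 and 26.1 normalized reads in NonCM control, against 19.1, 14.6 and 13.5 in Wls fl/fl libraries. Every Wls fl/fl value was below every control value, with means of 27.6 ± 1.46 and 15.7 ± 2.97 (SD, n = 3), a ratio of 0.57. The log2 change was -0.79 (SE 0.24, adjusted p = 0.111 by limma and 0.0404 by edgeR), on 5 reads in control replicate 1 and at most 38 elsewhere. Trib3 was the 1 gene of the 36 whose groups did not overlap on the low side (2.78%, against 12.6% of all genes), whereas 13 genes did not overlap on the high side (36.1%, against 13.9%). Asns, asparagine synthetase, differed by 0.20 (SE 0.18) and Chac1, which degrades glutathione, by 0.13 (SE 0.16), both with overlapping groups.

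Of the genes of translocation and degradation, 7 of the 8 tested in NonCM had higher means and 0 were called by limma. Edem1, a mannosidase-like protein that marks glycoproteins for degradation, had 310, 287 and 296 normalized reads in control, against 368, 349 and 355 in Wls fl/fl libraries, without overlap (log2 change 0.26, SE 0.07, adjusted p = 0.0611 by limma and 0.0129 by edgeR). Sel1l, the adaptor of the ligase Syvn1 (Hrd1), differed by 0.14 (SE 0.05, adjusted p = 0.186) and Syvn1 itself by 0.16 (SE 0.09). Ssr1, a subunit of the translocon-associated complex, differed by 0.15 (SE 0.06, adjusted p = 0.191), and Sec61b, the small subunit of the channel, by 0.06 (SE 0.18). Edem2 and Derl1 differed by 0.24 (SE 0.14) and 0.02 (SE 0.08). Herpud1, a membrane protein of the degradation complex and a common readout of ER stress, was the exception in direction (log2 change -0.19, SE 0.15, adjusted p = 0.538). Derl3 was below the minimum value, with 0, 0.763 and 2.17 normalized reads in control, against 3.82, 5.32 and 2.99 in Wls fl/fl libraries. These values did not overlap between genotypes, on 0 to 8 reads a library. In the first control library 0 reads allows a normalized value of up to 16.6, counting error only. Derl3 was not tested, and no difference can be stated from such low counts.

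**Figure D3:**
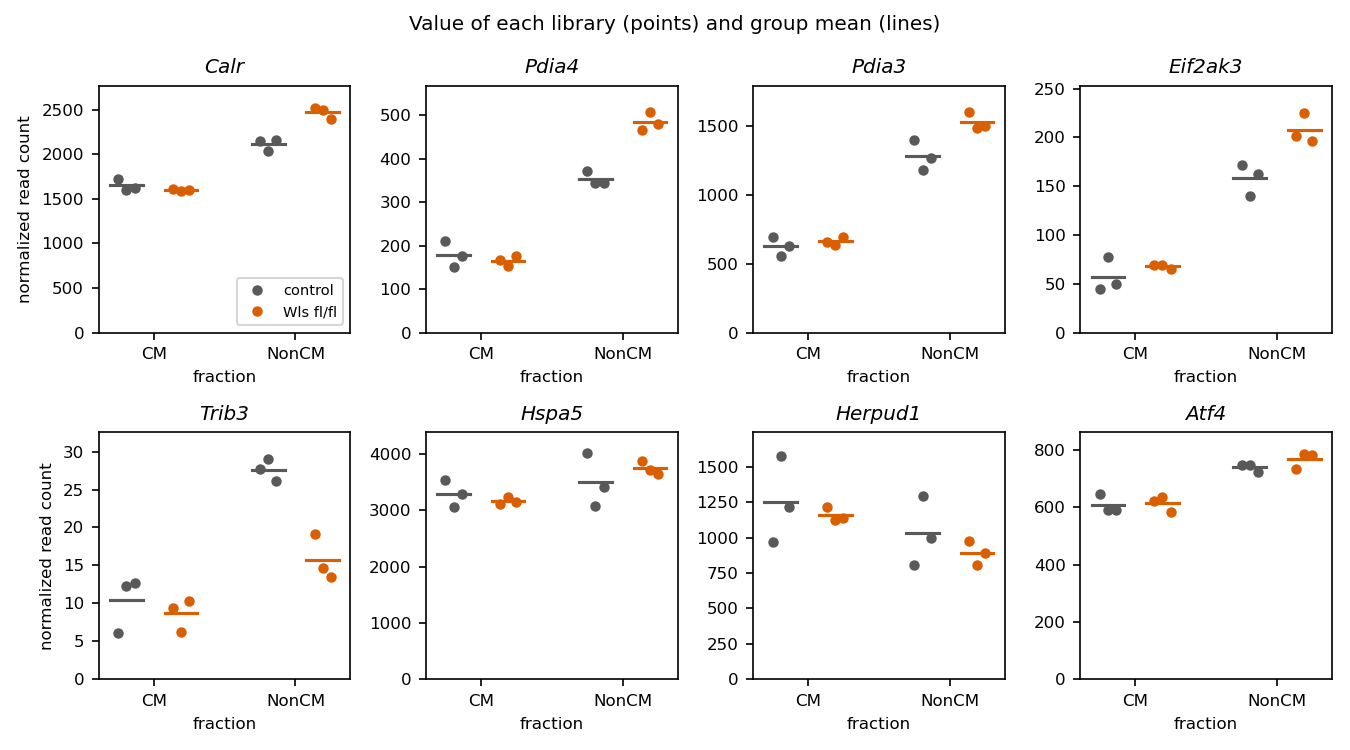
Normalized read count of 8 genes in each library (points, with replicates 1 to 3 from left to right) and group means (lines) for control (grey) and Wls fl/fl (orange), with CM and NonCM side by side; the 2 fractions were scaled apart, so levels are comparable only within a fraction. In NonCM the groups do not overlap for Calr, Pdia4, Pdia3, Eif2ak3 and Trib3 and overlap for Hspa5, Herpud1 and Atf4, while in CM they overlap for all 8.

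In the CM fraction, where Wls fell, none of the genes was called. Of 34 genes tested, 0 passed by limma, edgeR or DESeq2, beside 11 of 11944 genes called by limma in all (0.0921%), and 3 stood at an unadjusted p under 0.05 by limma, 2 by edgeR and 1 by DESeq2. The 3 by limma are 8.82% of the genes, against 8.74% of all genes, which is the background share. Higher means were seen in 12 genes (35.3%, against 50.1% of all genes), and the median log2 change was -0.05, against 0.00. Without CM control replicate 1 it was -0.01, with 17 of 35 genes higher, and it was -0.05 with replicate 3 of both genotypes removed, when 14 of 34 were higher. The authors' deposited table had an adjusted p for 33 of the genes, with 0 under 0.05 and the lowest at 0.9996.

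The CM genes with the lowest p were of different roles. Edem2, which helps start the trimming of misfolded glycoproteins, had 72.5, 70.3 and 56.4 normalized reads in control, against 35.2, 52.1 and 48.5 in Wls fl/fl libraries (log2 change -0.55, SE 0.18, adjusted p = 0.434). Asns had 21.5, 28.4 and 21.4 against 34.1, 34.4 and 40.8 (log2 change 0.60, SE 0.20, adjusted p = 0.446). Canx had 3092, 3086 and 3056 against 2903, 2877 and 2903, a gap small in size and beyond the spread of either group (log2 change -0.09, SE 0.04, adjusted p = 0.566). In all 3 the groups did not overlap. Asns was the 1 gene of 34 without overlap on the high side (2.94%, against 7.97% of all genes), and Edem2, Canx, Dnajb9, Dnajc3 and Ddit3 were the 5 on the low side (14.7%, against 7.05%).

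Chaperones and enzymes were nearly level in CM. Hspa5 had 3549, 3060 and 3285 normalized reads in control, against 3116, 3241 and 3158 in Wls fl/fl libraries, with the Wls fl/fl values inside the control range (log2 change -0.05, SE 0.05, adjusted p = 0.812). Calr differed by -0.04 (SE 0.05), Hsp90b1 by 0.03 (SE 0.06) and P4hb by -0.01 (SE 0.05). Pdia4 had 210, 151 and 175 against 167, 153 and 175, again inside the control range (log2 change -0.10, SE 0.12, adjusted p = 0.846). Of the 9 genes of isomerases and oxidase 2 were higher, of 7 chaperones 3, and of 6 degradation genes 1.

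Sensors and factors were also uncalled in CM. Ern1 had 123, 164 and 131 normalized reads in control, against 107, 109 and 128 in Wls fl/fl libraries (log2 change -0.27, SE 0.13, adjusted p = 0.575), overlapping. Eif2ak3 had 45.0, 77.7 and 49.6 against 69.3, 68.8 and 65.4, where 1 control library stood above all Wls fl/fl libraries (log2 change 0.28, SE 0.19, adjusted p = 0.705). Atf6 had 937, 1180 and 1061 against 1043, 1110 and 970, within the control range (log2 change -0.02, SE 0.08, adjusted p = 0.960). Xbp1 had 252, 223 and 261 against 258, 179 and 258, with 1 low Wls fl/fl library (log2 change -0.10, SE 0.13, adjusted p = 0.867). Atf4 had 646, 591 and 593 against 621, 638 and 584, overlapping (log2 change 0.01, SE 0.06, adjusted p = 0.976). Ddit3 had 76.6, 77.7 and 75.9 against 65.8, 61.5 and 69.9, without overlap but with counts of 56 to 108 reads a library (log2 change -0.22, SE 0.12, adjusted p = 0.645). Cell type markers were near level between genotypes in CM: cardiomyocyte markers took 11.4% to 11.5% of normalized reads in control and 11.2% to 12.4% in Wls fl/fl libraries, fibroblast markers 0.138% to 0.146% and 0.132% to 0.163%, and 0 markers were called by limma.

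Whether the effect of genotype differed between the fractions was tested as an interaction in 1 fit of all 12 libraries, on log2(CPM + 1), where CPM is the recovered read count scaled to the library total times a TMM factor fitted over all 12 libraries. By limma 0 of 36 genes passed, beside 1.41% of all 13718 genes, and 8 of 36 had an unadjusted p under 0.05, beside 13.5%. The difference, NonCM effect minus CM effect, was positive for 31 of 36 genes, against 49.3% of all genes, with a median of 0.15 on the log2 scale. These signs come from the same libraries as the changes within each fraction, so they are not independent of them. The lowest adjusted p belonged to Dnajc3 (0.42, SE 0.11, adjusted p = 0.0744), whose value was -0.17 in CM and 0.28 in NonCM in the separate fits. Pdia4 followed with 0.52 (SE 0.14, adjusted p = 0.0844), and it was the 1 gene that passed by edgeR (0.56, adjusted p = 0.0426, beside 1.47% of all genes). Edem2 differed by 0.71 (SE 0.22, adjusted p = 0.146) and Calr by 0.24 (SE 0.07, adjusted p = 0.103). Without replicate 3 of all groups the adjusted p of Pdia4 was 0.77.

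Levels per length were compared within control hearts, as TMM-scaled CPM per kilobase of exon (CPM per kb). The TMM factors put CPM at 108% of plain reads over the library total in each CM control library and at 87.6% to 94.9% in NonCM control libraries, so the order of genes within a fraction does not depend on them while a difference between fractions does. In NonCM control libraries Calr was at 133 ± 3.91, Hspa5 at 128 ± 16.1, Canx at 98.2 ± 0.122, Hsp90b1 at 97.3 ± 6.20, P4hb at 79.1 ± 1.43 and Herpud1 at 73.0 ± 18.1 (SD, n = 3). Calr and Hspa5, and Canx and Hsp90b1, lay within their spread of each other. In CM control libraries the order was Hspa5 at 150 ± 12, Calr at 129 ± 5.79, Canx at 122 ± 0.990, Herpud1 at 109 ± 25.8 and Hsp90b1 at 97.4 ± 8.19 CPM per kb. Sensors were far below Hspa5, Hsp90b1, Calr and Canx. Atf6 was at 24.9 and 17.9 CPM per kb in CM and NonCM, Ern1 at 2.91 and 3.47, and Eif2ak3 at 2.02 and 4.50. The mean of Atf6 was above those of the less abundant chaperones and co-chaperones Hyou1, Dnajb9, Dnajb11, Dnajc3, Manf and Sdf2l1 in both fractions. Atf4 was at 60.3 and 59.1, Xbp1 at 17.5 and 25.8 and Ddit3 at 14.7 and 12.8. Derl3 was lowest in both, at 0.355 and 0.103.

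The fractions of control hearts differed in many of these genes. Since the NonCM libraries held cardiomyocyte RNA by the markers above, these are differences between fractions and not between pure cell types. Of 36 tested, 21 (58.3%) passed by limma, near the 53.1% of all genes that did. In NonCM 16 were higher (against 27.4% of all genes) and 5 were lower (against 25.6%), with a median log2 difference of 0.20, against 0.00 for all genes. The split depended on scaling: upper-quartile scaling moved the median of all genes to -0.18 and gave 13 higher and 12 lower. Plain library totals, an alternative added after the data were seen, moved it to 0.22 and gave 27 higher and 2 lower (against 41% and 14% of all genes). Without replicate 3, TMM scaling gave 12 higher and 3 lower (41.7% called, against 38.6% of all genes). Called alike under all 3 scalings were 13 genes higher in NonCM (Pdia3, Pdia4, Pdia5, Fkbp14, Dnajc3, Sdf2l1, Sec61b, Ssr1, Edem1, Eif2ak3, Xbp1, Asns and Trib3) and 2 lower (Atf6 and Chac1). Of these, Pdia5, Sec61b and Asns lost the call without replicate 3 (adjusted p = 0.0624, 0.101 and 0.15). Hspa5, Canx and Herpud1 were called lower under TMM and upper-quartile scaling and not with library totals, where their log2 differences were 0.01, -0.08 and -0.35. Hspa5 and Herpud1 were also not called without replicate 3 (adjusted p = 0.168 and 0.0664). Calr, Hsp90b1, Atf4 and Derl1 were called lower in NonCM under upper-quartile scaling and higher with library totals. The series text says that both fractions were taken from each mouse, but the labels do not say which libraries share one, so the fit treats all as separate and its errors include differences between hearts.

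Edem1 had the lowest p between fractions. It had 17.2, 16.5 and 15.6 CPM in CM control and 42.3, 39.8 and 41.0 in NonCM control libraries, wholly apart (log2 difference 1.27, SE 0.08, adjusted p = 8.3e-10). Eif2ak3 had 7.70, 13.2 and 8.48 against 23.4, 19.4 and 22.5 CPM (log2 difference 1.11, SE 0.15, adjusted p = 8.2e-06). Pdia3 and Pdia4 differed by 0.72 (SE 0.08) and 0.67 (SE 0.10), and Xbp1 by 0.55 (SE 0.13). On the CM side Chac1 had 13.5, 10.7 and 15.3 CPM in CM and 6.04, 6.67 and 6.91 in NonCM control libraries (log2 difference -0.90, SE 0.15, adjusted p = 6.4e-05). Atf6 differed by -0.47 (SE 0.08), and Canx by -0.32 (SE 0.05) and Hspa5 by -0.23 (SE 0.08) under TMM scaling, while Calr (0.05, SE 0.05) and Atf4 (-0.03, SE 0.06) did not pass. This comparison shares its NonCM control libraries with the genotype comparison, so the 2 are not independent. Pdia4, for example, differed by 0.67 between fractions and by 0.45 between genotypes in NonCM, and Edem1 by 1.27 and 0.26.

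**Figure D4:**
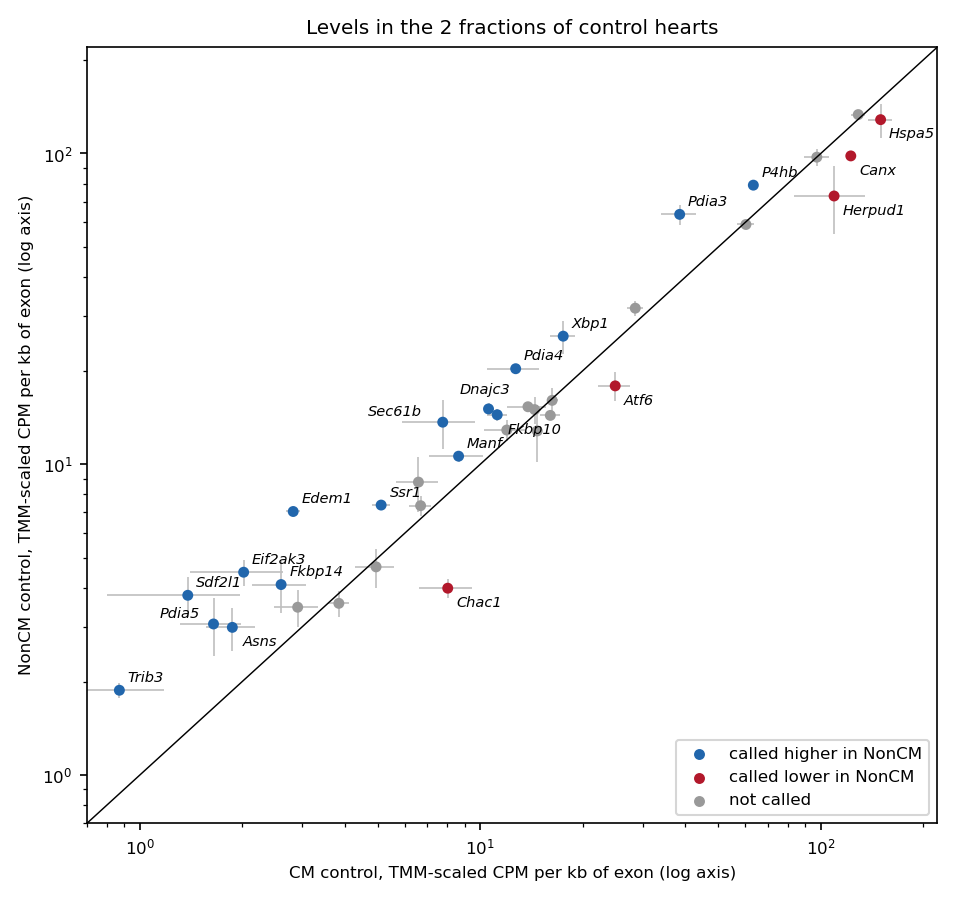
Level of each gene in CM control (x axis) and NonCM control (y axis), in TMM-scaled CPM per kb of exon on log axes, as means of 3 libraries with bars of 1 SD; blue genes were called higher and red genes lower in NonCM by limma with TMM scaling, and the line marks equal levels. Edem1, Eif2ak3 and Sdf2l1 lie farthest above the line, Chac1 farthest below it, and the most abundant chaperones lie near it; with library totals Hspa5, Canx and Herpud1 were not called lower, and Derl3 is not shown.

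Variation among control libraries was widest for a few genes. The ranking covers the 34 genes tested in both fractions and leaves out the low genes Derl3, Sdf2l1 and Trib3. Among them Eif2ak3 (30.9%) and Sec61b (24.6%) had the highest coefficients of variation in CM control, where counting error alone gives 13.7% and 20.5%. Herpud1 had the highest of the 34 in NonCM control and the third in CM control. Herpud1 had normalized read counts of 972, 1575 and 1214 in CM control and 804, 1294 and 999 in NonCM control libraries, a ratio of highest to lowest of 1.62 and 1.61. Its coefficient of variation was 24.2% and 23.9% in the control groups, where counting error alone gives 2.93% and 4.76%, and 4.30% and 9.74% in the Wls fl/fl groups. The control values of Herpud1 rose and fell in the same order in both fractions. As these libraries may share hearts, the spreads in CM and NonCM control may not be separate observations. The median coefficient of variation over these 34 genes was 7.93% in CM control, 5.76% in CM Wls fl/fl, for NonCM libraries 8.69% in control and 4.89% in Wls fl/fl.

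Genes with a promoter element were also followed across genotypes. Of the 10 tested genes with ERSE or ERSE-II, 8 had higher means in NonCM Wls fl/fl libraries, with a median log2 change of 0.13. They ranged from -0.19 (Herpud1) to 0.28 (Dnajc3). Over the whole list 32 of 36 were higher with a median of 0.16, so genes with the element did not stand out. In CM 2 of 10 were higher, with a median of -0.06, beside 12 of 34 and -0.05 over the whole list. Pdia4, with the lowest p in NonCM, held no exact copy in the window printed above. The 4 genes with the C/EBP-ATF element ranged from -0.79 (Trib3) to 0.20 (Asns) in NonCM.

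A wider set of 160 genes of the same pathways in 6 lists, none of them among the 37, was tested in the same fits. In CM 0 of 148 tested genes were called by limma and 0 by edgeR. At an unadjusted p under 0.05 by limma stood 11 (7.43%, against 8.74% of all genes), which is near the background. In NonCM 9 of 152 rose and 1 fell (6.58%, against 4.51% of all genes), 100 of 152 had higher means (65.8%, against 53.2%), and the median log2 change was 0.06. Without replicate 3 none of them was called by limma, and 17 (11.2%) stood at an unadjusted p under 0.05, near the 9.33% of all genes tested. Other folding enzymes held 4 of the 9 that rose, of 23 tested (17.4%, against 2.47% of all genes called up). Among them Ppic, a cyclophilin of the secretory pathway, had normalized read counts of 366, 387 and 395 in control, against 509, 475 and 525 in Wls fl/fl libraries (log2 change 0.39, SE 0.07, adjusted p = 0.0159). Rcn3, a calcium-binding ER protein, had 410, 390 and 364 against 492, 538 and 507 (log2 change 0.40, SE 0.07, adjusted p = 0.0168). The other 2, named after their values were seen, were Serpinh1 (Hsp47), the collagen chaperone (0.36, adjusted p = 0.0236), and the disulfide isomerase Txndc5 (0.27, adjusted p = 0.0374).

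Of 40 tested genes of the integrated stress response and amino acid supply 2 rose and 1 fell in NonCM (7.5%, against 4.51% of all genes). Aldh18a1, which makes a precursor of proline, had 94.2, 90.0 and 114 normalized reads in control, against 153, 169 and 158 in Wls fl/fl libraries, the largest change among the wider genes that passed (log2 change 0.68, SE 0.12, adjusted p = 0.0165). Atf5, a factor related to Atf4, rose by 0.37 (SE 0.07, adjusted p = 0.019), and Vldlr, named after its values were seen, had a log2 change of -0.34 (adjusted p = 0.0209). Creb3l2, a membrane-bound factor of the Atf6 type known for its part in matrix secretion, rose by 0.32 (SE 0.05, adjusted p = 0.0151). It was the 1 gene called of 12 tested in its list (8.33%, against 4.51% of all genes). Map3k5 in that list differed by -0.24 (adjusted p = 0.0624).

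Of 28 genes of transport between ER and Golgi, 1 was called in NonCM (3.57%, against 4.51% of all genes), which is near the background. It was Kdelr2, a receptor that returns chaperones to the ER, which rose (0.29, SE 0.06, adjusted p = 0.0346). Sec24d, of the coat of ER vesicles, differed by 0.23 (adjusted p = 0.0647). In the list of glycan trimming and other degradation genes 1 of 20 was called (5%, against 4.51% of all genes), again near the background. This was Fam129a, which rose (0.35, SE 0.07, adjusted p = 0.0255). These data do not show its part in either process, so the call alone is not a rise of a trimming or degradation gene. Ganab, a glucosidase that trims N-glycans, differed by 0.18 (adjusted p = 0.114). Of 29 genes of the translocon, signal peptidase and N-glycosylation 0 were called by limma and 2 rose by edgeR (6.9%, against 5.73% of all genes). At an unadjusted p under 0.05 by limma stood 5 (17.2%, against 19.3% of all genes), which is near the background. Sec61a1, the pore subunit, differed by 0.41 (SE 0.11, adjusted p = 0.0647), and Srp68, of the signal recognition particle, by -0.24 (adjusted p = 0.131).

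In CM the wider genes with the lowest p in each list were Serpinh1 (log2 change 0.21) and Tmx1 (-0.19), Ssr3 (0.13) and Sec61a1 (0.22), Vimp (-0.30) and Faf2 (0.14), Sec23a (-0.17) and Lman2 (0.17), Cebpb (0.19) and Cars (0.26), and Bcl2l11 (-0.27) and Map3k5 (-0.22). Their adjusted p by limma ranged from 0.399 (Bcl2l11) to 0.680 (Faf2). Bcl2l11, a cell death gene, had 305, 259 and 271 normalized reads in CM control, against 235, 224 and 230 in CM Wls fl/fl libraries, without overlap.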

How the data were processed

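RNA of 12 libraries was compared, in 4 groups of 3, from the labelled genotype and cell source. The submitters' processing notes name STAR, DESeq2 and build mm10. For the counting tool, annotation and use of strand, the sources used here give nothing. Deposited values are a signal, read counts that the authors divided by a size factor within each fraction's table. All of them (100%) are whole multiples of the value of 1 read (tolerance 0.01 reads), so whole reads were recovered. Per the file headers, the authors' tables also hold log2 fold changes, their standard errors, p-values and adjusted p-values. These were used only where the authors' deposited table is named, and the deposited test statistic, a score, was not used.

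The main test was limma 3.58.1 (R 4.3.3; lmFit, eBayes with trend) on log2(value + 1), so that changes of low genes are understated, for genes with a mean of at least 10, within each fraction, with Benjamini-Hochberg adjustment over all genes tested and a threshold of 0.05. Fractions were compared with limma on log2(CPM + 1) of recovered reads, scaled by library total and TMM factor, at a mean CPM of at least 1. edgeR 4.0.16 (quasi-likelihood) and DESeq2 1.42.0 on recovered reads, limma-voom, other scalings, filters and pseudocounts, and leaving out libraries were alternatives. With 3 against 3 libraries an exact permutation test cannot go below p = 0.1, so none was run. Code was tested on simulated data. Exon lengths are of GENCODE M21 (GRCm38). Promoters are RefSeq's of GRCm38.p6, and of the 32 matched genes 26 had the first transcribed bases of their promoter row in a GENCODE transcript on the same strand.

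The 37 genes, the wider lists and the alternatives were chosen with earlier results of these data known. Library values were given for genes called within a fraction, for Hspa5, Ern1, Eif2ak3, Atf6, Xbp1, Atf4 and Ddit3, and for examples of a role, and other pathway genes named are the 2 of lowest p in each wider list and fraction. Further genes were named, or shown by library, after their values were seen, such as those that edgeR alone called, Herpud1, Derl3, and Edem1, Chac1 and Eif2ak3 between fractions. Intervals and floors (3 reads) cover counting error only. The symbol Sels of the wider lists was not matched.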

Additional observations from a re-analysis of the deposited data

Results flagged for a closer look

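The effect of genotype on Pdia4 differed between the fractions by edgeR's quasi-likelihood test of the interaction in the joint fit of 12 libraries (adjusted p = 0.04261, log2 difference 0.56). In that fit Pdia4 had a mean CPM (recovered reads scaled by library total and TMM factor) of 30.5 ± 5.31 in controls and 29.0 ± 2.40 in Wls fl/fl for CM, and of 48.7 ± 1.61 and 67.5 ± 3.04 for NonCM (SD, n = 3). By limma the same difference was 0.52 with an adjusted p of 0.0844, 0.0992 under upper-quartile scaling, 0.0884 with plain library totals and 0.77 without replicate 3 of all groups. The groups of 3 are too small for a check of single outlying libraries.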

How the results depend on the processing

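In NonCM the count of called genes, 2 of 36, was 1 with no filter on low values, 5 at a mean of 50 or more, 11 with edgeR and 13 with limma-voom (12 up, 1 down). Leaving out 1 library at a time gave 0 to 15, and leaving out replicate 3 of both genotypes gave 0 by limma and 0 by edgeR. TMM or upper-quartile scaling and pseudocounts of 0.5 and 5 gave 2, and DESeq2 3. Settings also change how many of all genes are called, 4.51% in the main fit, and 5.73% up and 5.16% down by edgeR. No such share stands beside the other counts in this paragraph, so they are not results about these genes in particular. With edgeR and limma-voom 31 of 36 genes were higher. In CM the count was 0 under each of the 17 alternatives. The interaction count, 0 by limma, was 1 by edgeR and 0 in each other setting. The count between fractions, 21, ranged from 15 to 29, the highest with plain library totals, a scaling added after the data were seen. Over 22 genes named in each fraction, 374 values per fraction were recomputed: in CM 361 kept direction and call, 3 lost the call (all for Wls) and 10 uncalled values changed sign, and in NonCM 295 kept both, 54 lost and 23 gained a call and 2 uncalled values changed sign. No called value reversed within a fraction. For genes of low count, such as Trib3, Pdia5 and Sdf2l1, 5 to 6 reads in NonCM control replicate 1 limit the precision. No paired analysis was run. The labels carry no shared replicate numbers and, although both fractions came from each mouse, do not say which libraries share one. The numbers in the sample titles of the NonCM libraries differ from those of the CM libraries by a constant offset, which may reflect shared hearts. A fit with such a block was not run, so errors and p-values between fractions and of the interaction take no account of it.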
